A study of Mus musculus with 8 samples.

Results

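Ion channel genes of Neuro2A (N2A) cells were followed through the first 8 h after stimulation of the cannabinoid 1 receptor (CB1R). The channel genes were taken by symbol as the potassium channel genes (Kcn), the alpha1, alpha2delta, beta and gamma subunits of voltage-gated calcium channels (Cacn), the voltage-gated sodium channel genes (Scn) and the hyperpolarization-activated cation channel genes (Hcn). The deposited table held 85 of them among 16980 genes: 54 Kcn, 19 Cacn, 9 Scn and 3 Hcn genes, of which 3 are transcripts antisense to a channel gene. N2A is a mouse neuroblastoma cell line that extends neurites when CB1R is activated, and HU210 is a potent CB1R agonist. All cells were first kept for 16 h in serum-free medium with albumin, and then received 2 µM HU210 or drug-free DMSO for 2 h, 4 h, 6 h or 8 h. Each of the 8 conditions was 1 library of mRNA pooled from 2 to 3 experiments. Thus no difference at a single time point had a replicate check, and a range over libraries in the following spans both treatments and all times.

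Voltage-gated potassium, sodium and calcium channels open when the membrane depolarizes, and together they shape the action potential and the entry of calcium that follows it. Inward rectifiers, two-pore potassium channels and hyperpolarization-activated channels set the resting potential, while calcium-activated potassium channels link calcium entry back to the membrane potential. CB1R couples to inhibitory G proteins, which in neurons close the N-type and P/Q-type calcium channels (Cacna1b and Cacna1a) and open G protein-gated inward rectifiers (Kcnj3, Kcnj5, Kcnj6 and Kcnj9); the data here measured the mRNAs of such channels and not their currents.

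The libraries were first checked against the cell type and against each other. Of 14 marker genes of sympathetic neuroblastoma in the table, 11 had a mean FPKM (mRNA fragments counted per kilobase of exon and corrected for library size) of at least 1. Hand2 had 84.8 and Phox2a 41.1, while Th (2.00) and Dbh (1.14) were the lowest of the 11. Ddc (0.990), Nefm (0.00715) and Nefl (0.00341) lay under 1. The summed FPKM of the 14 ranged from 387 to 472 over the libraries. Of 8 markers of glia, fibroblasts, endothelium and muscle, 2 reached a mean of 1 (Mbp at 4.33 and Pecam1 at 1.04), and the sum ranged from 5.50 to 7.40. The DMSO library of 4 h stood apart from the other 3 DMSO libraries: 4.47% of 11306 genes lay 1.5-fold or more from their mean, against 1.25% to 2.40% when the same was done for each other DMSO library. Both 4 h libraries carried a trend on base composition. Over the 11306 genes, the deviation of a library from the gene's mean had a rank correlation with transcript GC content of -0.46 in DMSO at 4 h and 0.44 in HU210 at 4 h, and of -0.15 to 0.28 in the other 6 libraries. The genes past 1.5-fold at 4 h are therefore given with this library and also with the other 3 DMSO libraries in its place.

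Of the 85 channel genes, 40 had a mean FPKM of at least 1: 21 Kcn, 11 Cacn, 5 Scn and 3 Hcn genes. This was 47.1% of the channel genes, against 67.7% of all genes in the table. The expressed channel genes were low to moderate in level, with a median of 3.21 FPKM against 12.7 FPKM for the 11306 genes with such a mean and a value at all 4 time points. A mean of at least 10 was found for 9 channel genes, 5 to 10 for 5, 2 to 5 for 14 and 1 to 2 for 12. The 10 most abundant held 62.0% of the summed FPKM of all channel genes. Of the 45 genes under 1, 19 had a mean between 0.1 and 1, 22 were lower than 0.1, and 4 (Kcnip1, Kcnmb1, Kcns3 and Kcnd3os) were listed at 0 in every library. A set of 90 housekeeping genes had no value of 0. These were not chosen as genes of low level, and whether the values of 0 in channel genes are real was not tested. At the limit of 1 FPKM, Kcnab3 (1.06), Kcnk5 (1.04) and Kcnmb4os2 (1.02) lay just inside, and Kcnh7 (0.899), Kcnmb4os1 (0.783) and Kcnn1 (0.770) just outside.

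**Figure D1:**
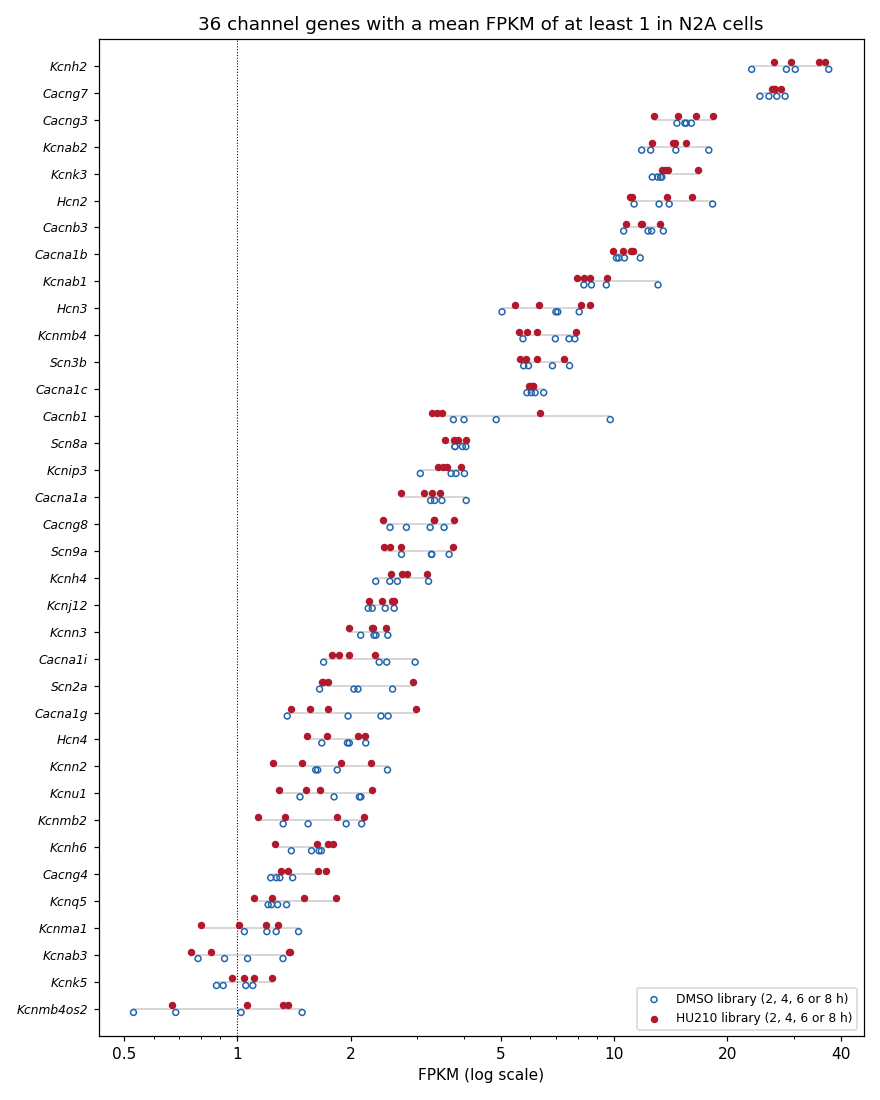
FPKM on a log scale of 36 of the 40 channel genes with a mean FPKM of at least 1, ordered by mean; each filled point is a HU210 library and each open point a DMSO library at 2, 4, 6 or 8 h, and the grey line spans the lowest to the highest. Kcnh2 (mean 30.8) and Cacng7 (26.6) stand above the rest, Cacnb1 has the widest span (3.28 to 9.77), and the spans of most neighbouring genes overlap, though not those of Cacng7 and Cacng3.

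The upstream sequences of the most abundant potassium, calcium and hyperpolarization-activated channel genes are shown because these 3 transcripts led their families, and because Kcnh2 and Hcn2 differed in opposite directions at 4 h. Each runs 5′ to 3′ on the strand of its gene from 250 bases before to 50 bases after a RefSeq transcript start on GRCm38.p6. Capitals mark the GC box, which was searched as GGGCGG and as its reverse complement CCGCCC. The windows were chr5:24329542-24329841 on the minus strand for Kcnh2, chr7:3332575-3332874 on the plus strand for Cacng7 and chr10:79716384-79716683 on the plus strand for Hcn2.
Kcnh2: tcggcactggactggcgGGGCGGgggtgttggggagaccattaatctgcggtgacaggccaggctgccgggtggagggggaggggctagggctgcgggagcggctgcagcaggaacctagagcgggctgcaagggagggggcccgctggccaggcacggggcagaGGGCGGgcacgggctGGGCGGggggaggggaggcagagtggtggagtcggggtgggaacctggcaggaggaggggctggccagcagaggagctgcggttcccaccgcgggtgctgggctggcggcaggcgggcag
Cacng7: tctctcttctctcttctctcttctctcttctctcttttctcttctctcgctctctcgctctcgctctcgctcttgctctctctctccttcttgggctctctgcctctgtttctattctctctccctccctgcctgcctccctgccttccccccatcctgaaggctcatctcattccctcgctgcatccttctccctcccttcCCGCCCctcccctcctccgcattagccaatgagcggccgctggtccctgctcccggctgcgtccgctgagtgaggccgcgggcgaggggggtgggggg
Hcn2: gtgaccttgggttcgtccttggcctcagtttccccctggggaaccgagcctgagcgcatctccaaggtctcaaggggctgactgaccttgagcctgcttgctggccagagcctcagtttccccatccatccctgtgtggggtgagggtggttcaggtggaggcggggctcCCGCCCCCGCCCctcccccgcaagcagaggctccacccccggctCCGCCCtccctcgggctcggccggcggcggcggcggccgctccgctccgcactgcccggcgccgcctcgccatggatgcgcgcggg
The Kcnh2 and Hcn2 windows each held 3 GC boxes, with 19 and 26 CpG dinucleotides, and the Cacng7 window held 1 box and 15 CpG. Promoter windows were found for 59 of the 85 channel genes. At least 1 GC box stood in a window of 17 of the 27 expressed genes (63.0%) and of 19 of the 32 with a mean under 1 (59.4%). Over all genes of the table these shares were 71.0% for those with a mean of at least 1 and 43.0% for those under 1, and 38.2% of all RefSeq genes with a window had a box. A match of these letters is a description of the window and not evidence of binding.

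The potassium channels were led by 1 gene. Kcnh2 (mm9 chr5:23825407-23857422, minus strand), which encodes the ether-a-go-go-related channel (ERG) of the delayed rectifier current IKr, had the highest mean of all channel genes (30.8 FPKM, range 23.2 to 37.1) and made up 55.1% of the summed FPKM of the 20 voltage-gated potassium channel genes. Of these 20 genes, 7 had a mean of at least 1. Kcnh4 (2.76) and Kcnh6 (1.59) are relatives of Kcnh2, and Kcnq5 (1.34) is a slow channel that opens near the resting potential. Those with a mean under 1 included Kcnd1 (0.521), Kcna4 (0.102) and Kcnq3 (0.00758), which were picked for mention after their values had been seen.

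Auxiliary subunits of these channels were comparatively abundant. Kcnab2, a beta subunit with an aldo-keto reductase fold, had 14.2 FPKM (range 11.8 to 17.8), and its relatives Kcnab1 and Kcnab3 had 9.27 and 1.06. The calcium-binding protein Kcnip3, which associates with Kv4 channels and is also known as the repressor DREAM, had 3.63. Of its usual partners among the Kcnd genes, Kcnd1 (0.521) and Kcnd3 (0.00928 FPKM) were lower, and Kcnd2 was not analysed here.

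Among calcium-activated channels, the small-conductance genes Kcnn3 (2.29) and Kcnn2 (1.81) lay above the large-conductance channel Kcnma1 (1.16). The beta subunit Kcnmb4, the neuronal partner of Kcnma1, had 6.73 FPKM and Kcnmb2, an inactivating partner, had 1.68, so that the 3 Kcnmb genes summed to 8.41 FPKM. Kcnu1, the pH-sensitive Slo3 channel known from sperm, had 1.78. Kcnmb4 shares exonic sequence with transcripts on the opposite strand, among them Kcnmb4os1 and Kcnmb4os2. The sources used here do not say whether the libraries kept the strand, so reads from Kcnmb4 and its antisense transcripts cannot be told apart where they overlap.

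The leak and rectifier classes were each led by a single gene. Kcnk3, the acid-sensitive two-pore channel TASK1, had 13.8 FPKM (range 12.6 to 16.7) and made up 84.6% of the sum of the 8 two-pore genes, followed by Kcnk5 at 1.04. Kcnj12, a strong inward rectifier, had 2.43 and was the only one of 5 inward rectifier genes to reach 1. Of the G protein-gated inward rectifiers through which CB1R acts in neurons, Kcnj9 had a mean of 0.451 FPKM (range 0.381 to 0.582) and Kcnj6 0.0555 (range 0.0174 to 0.108), and Kcnj3 and Kcnj5 were not analysed here.

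Calcium channel genes were led by the gamma subunits, which summed to 46.7 FPKM, against 24.7 for the alpha1 and 17.0 for the beta subunits. Cacng7 (26.6 FPKM, range 24.4 to 28.4) and Cacng3 (15.5, range 12.8 to 18.3), which belong to the family of transmembrane AMPA receptor regulatory proteins, came next after Kcnh2 among all channel genes, with Cacng8 at 3.12 and Cacng4 at 1.40. The beta subunits, which carry the pore to the membrane, were Cacnb3 (12.1) and Cacnb1 (4.86). Among the pore-forming alpha1 genes, the N-type Cacna1b had 10.7 FPKM (range 9.96 to 11.7), the L-type Cacna1c 6.09, the P/Q-type Cacna1a 3.34, and the T-type Cacna1i and Cacna1g 2.18 and 1.99. The L-type gene Cacna1d had a mean of 0.00104 over the time points at which it was listed. The 3 alpha2delta genes in the table, Cacna2d1, Cacna2d3 and Cacna2d4, summed to 0.0124 FPKM on average, and Cacna2d2 was not analysed here.

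Sodium channel and HCN genes were few and moderate. Scn8a (3.85), Scn9a (3.05) and Scn2a (2.05) were the pore-forming sodium channel genes above 1, and the beta subunit Scn3b had 6.41. The pacemaker channel gene Hcn2 had 13.6 FPKM (range 11.0 to 18.3), Hcn3 6.98 and Hcn4 1.92. As these are bulk libraries, fewer cells with a transcript and less of it per cell cannot be told apart.

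The order of levels was coarse. Along the 40 genes sorted by mean, 38 of the 39 neighbouring pairs had overlapping ranges over the 8 libraries, and only Cacng7 and Cacng3 were separated, with the lowest Cacng7 value (24.4) above the highest Cacng3 value (18.3). The median ratio of highest to lowest library, computed on FPKM + 1, was 1.36 for the channel genes and 1.34 for all 11306 genes. It reached 1.5 in 8 of the 40 (20%), against 25.2% of all genes. The summed FPKM of all channel genes ranged from 247 to 268 over the HU210 libraries and from 249 to 258 over the DMSO libraries.

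The first comparison asked which channel mRNAs differed between HU210 and DMSO at each hour. The change of a gene was log2[(FPKM with HU210 + 1)/(FPKM with DMSO + 1)], which understates the change of low genes, and 1.5-fold was taken as the limit. None of the 40 expressed channel genes passed it at 2 h, 6 h or 8 h. At 4 h, 5 of the 40 did: Hcn3 was higher with HU210, and Cacnb1, Hcn2, Kcnn2 and Kcnab1 were lower. Of all 11306 genes, 2.77% were past 1.5-fold higher and 8.69% past 1.5-fold lower at 4 h, so that the 1 (2.5%) and 4 (10%) of 40 were near the background. At 2 h the background was 0.504% higher and 1.45% lower, at 6 h 1.73% and 0.637%, and at 8 h 1.17% and 0.557%.

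**Figure D2:**
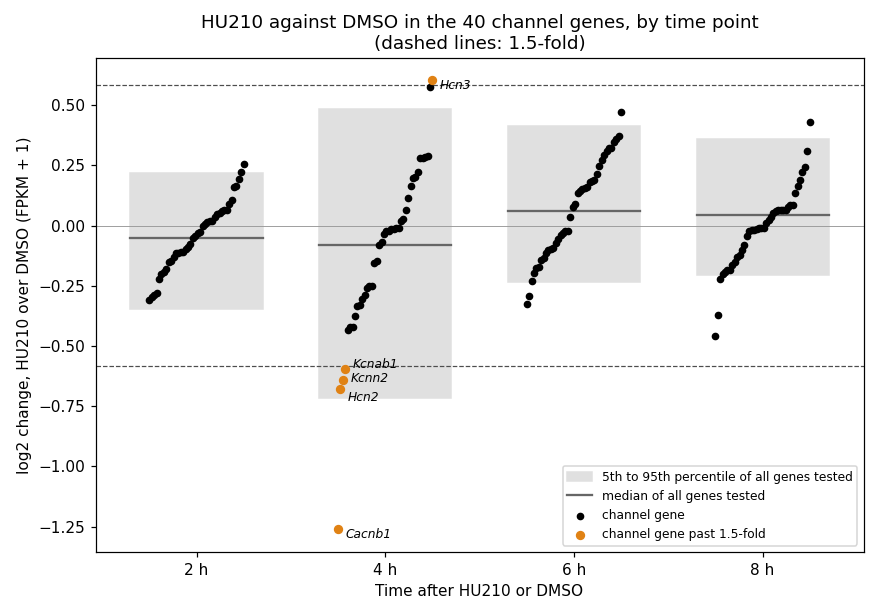
Log2 change, HU210 over DMSO on FPKM + 1, of the 40 channel genes at each time point; points are genes in order of change, the grey box spans the 5th to 95th percentile of all 11306 genes and the bar is their median. The 5 genes past 1.5-fold (dashed lines) all lie at 4 h, where the box for all genes is also widest, and Cacnb1 lies lowest at -1.26.

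Most channel genes differed little between the treatments at any hour. At the lower limit of 1.3-fold, 0 of the 40 were higher and 0 lower at 2 h, where 1.49% and 3.91% of all genes were. At 4 h the counts were 2 higher and 7 lower, against 8.97% and 19.9% of all genes. Hcn2 alone was higher and 0 were lower at 6 h (background 6.39% and 1.72%), and at 8 h Kcnmb4os2 was higher and Cacna1g lower (background 4.38% and 1.44%). Medians were -0.04, -0.03, 0.08 and -0.01 on the log2 scale, beside -0.05, -0.08, 0.06 and 0.04 for all genes. Among the 40, the largest changes outside 4 h were those of Hcn2 at 6 h (0.47), Cacna1g at 8 h (-0.46) and the antisense Kcnmb4os2 at 8 h (0.43).

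Cacnb1 (mm9 chr11:97862822-97884348, minus strand), the beta subunit first described in skeletal muscle and also present in brain, had the largest difference among the 40 expressed genes. Its FPKM with HU210 was 3.39, 3.49, 6.34 and 3.28 at 2, 4, 6 and 8 h, and with DMSO 3.75, 9.77, 4.87 and 4.00. The DMSO value of 4 h was the highest of the 8, and the next, 6.34, was a HU210 value. The log2 change was -1.26 at 4 h and -0.11, 0.32 and -0.22 at the other hours. Its close relative Cacnb3, with 11.8 FPKM in HU210 and 12.6 in DMSO at 4 h, had a change of -0.08.

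The hyperpolarization-activated channels moved apart at 4 h. Hcn2 (mm9 chr10:79179379-79198853, plus strand), a pacemaker channel of neurons and heart, had FPKM of 11.2, 11.0, 16.1 and 13.8 with HU210 and 13.2, 18.3, 11.3 and 14.0 with DMSO, and its changes were -0.22, -0.68, 0.47 and -0.02. Hcn3 (mm9 chr3:88949996-88964118, minus strand), a slowly activating member of the family, had 5.47, 8.18, 6.34 and 8.64 with HU210 and 7.01, 5.04, 7.09 and 8.08 with DMSO, with changes of -0.31, 0.60, -0.14 and 0.09. For both genes the DMSO value of 4 h was the extreme one, the highest for Hcn2 and the lowest for Hcn3, and the ranges of the treatments overlapped. Hcn4, the sinoatrial pacemaker channel, followed the direction of Hcn2 with changes of -0.33 at 4 h and 0.25 at 6 h. Of the Hcn3 exons, 17.1% overlap Pklr on the opposite strand, a gene with a mean of 0.619 FPKM.

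Of the potassium channel genes, Kcnn2 and Kcnab1 passed the limit. Kcnn2, the SK2 channel of the afterhyperpolarization, had FPKM of 1.49, 1.25, 1.89 and 2.26 with HU210 and 1.84, 2.50, 1.61 and 1.63 with DMSO, and changes of -0.19, -0.64, 0.14 and 0.31. Kcnab1 (mm9 chr3:64913306-65182145, plus strand), a beta subunit that speeds inactivation, had 7.99, 8.32, 9.58 and 8.64 with HU210 and 8.71, 13.1, 8.32 and 9.54 with DMSO, and changes of -0.11, -0.60, 0.18 and -0.13. In both genes the DMSO value of 4 h was the highest of the 8 libraries. Kcnh2 fell just short of the limit at 4 h, with a change of 0.58: its FPKM was 36.3, 35.1, 29.5 and 26.6 with HU210 and 30.3, 23.2, 37.1 and 28.7 with DMSO. Here the DMSO library of 4 h was the lowest and that of 6 h the highest.

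**Figure D3:**
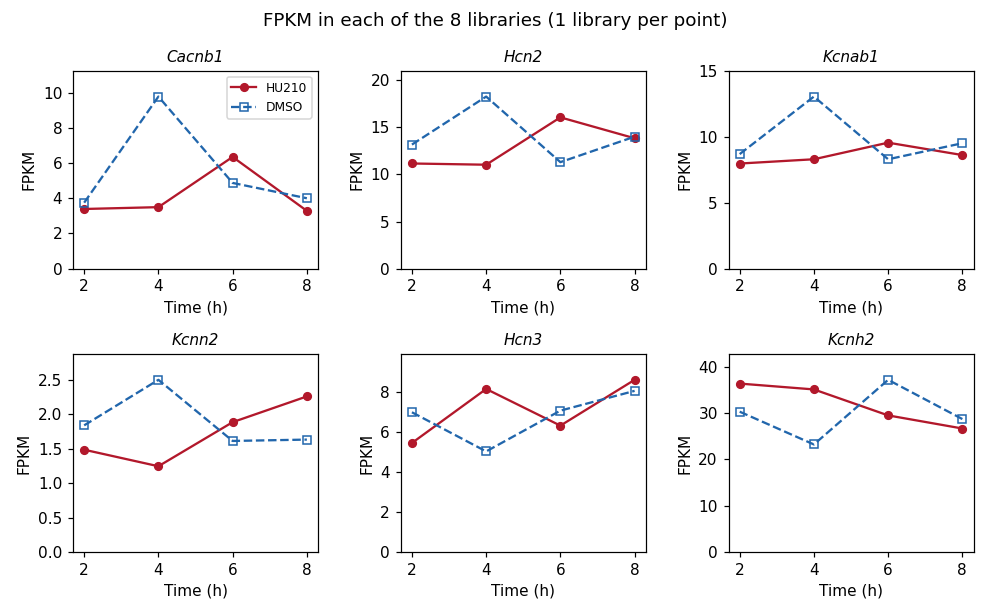
FPKM against time for Cacnb1, Hcn2, Kcnab1, Kcnn2, Hcn3 and Kcnh2; filled points are HU210 and open squares DMSO, 1 library per point, and each axis starts at 0. In all 6 genes, which were picked by their change at 4 h, the DMSO library of 4 h is the highest or the lowest of the 4 DMSO libraries. An example is Cacnb1, with 9.77 against 3.75 to 4.87.

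The 4 h results were set against the DMSO libraries of the other hours. With the mean of those 3 on the log2 scale as the reference, 0 of the 40 channel genes were past 1.5-fold in HU210 at 4 h, where 0.327% of all genes were higher and 1.29% lower. The changes became -0.21 for Cacnb1, -0.20 for Hcn2, -0.26 for Kcnn2, -0.08 for Kcnab1 and 0.13 for Hcn3, and that of Kcnh2 became 0.14. Against the same 3 libraries, the DMSO library of 4 h itself differed by 1.06 for Cacnb1, 0.48 for Hcn2, 0.38 for Kcnn2, 0.52 for Kcnab1 and -0.47 for Hcn3. These genes were picked by a 4 h change that uses this DMSO library. Its extreme values in them, and smaller changes against other libraries, thus follow in part from that choice. The DMSO library of 4 h held the highest or lowest value of 16 of the 40 channel genes (40%), and of 45.6% of all genes. With each library centred on its median, the 4 h genes were 2 higher (Hcn3 and Kcnh2) and 1 lower (Cacnb1) in place of 1 and 4. Of all genes, 5.02% were then higher and 5.7% lower.

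The transcripts of the expressed channel genes were rich in GC, with a median of 56.1% against 50.2% for all genes tested and 52.4% for the other channel genes. The rank correlation of the 4 h change with GC content was 0.34 over the 40 channel genes and 0.51 over all 11306 genes, a description over genes that share the same libraries. The 6 genes of the previous results lay both along and away from this trend: Kcnab1 was lower at 44.0% GC and Kcnh2 higher at 61.3%, while Hcn2 at 65.4% was lower. Without the trend on GC content and length, Cacnb1, Hcn2 and Kcnn2 remained past 1.5-fold lower and Kcnab1 (-0.29) and Hcn3 (0.47) did not. Of all genes, 3.33% were then past 1.5-fold higher and 4.2% lower. The part of base composition in these differences was not tested further.

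**Figure D4:**
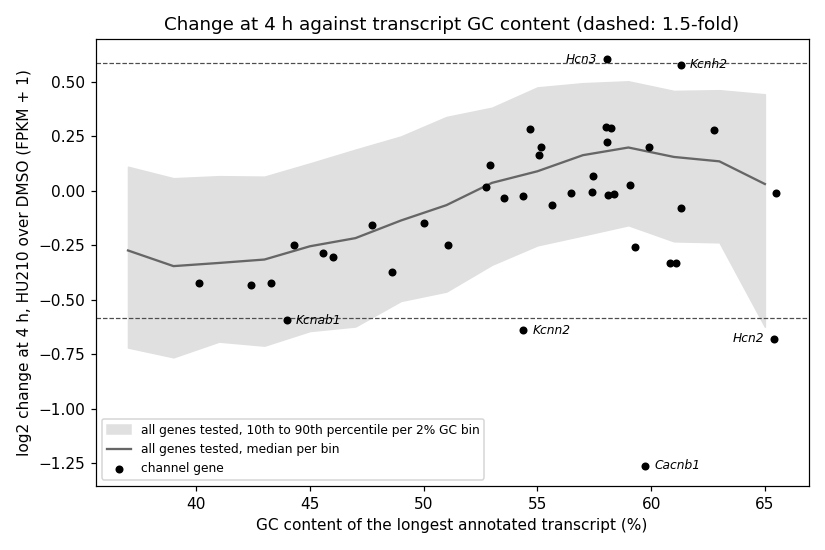
Log2 change at 4 h, HU210 over DMSO on FPKM + 1, against the GC content of the longest annotated transcript; black points are the 40 channel genes, the grey band spans the 10th to 90th percentile and the line the median of all genes tested in bins of GC content. Kcnab1 (44.0% GC) lies inside the band, Hcn3 and Kcnh2 (61.3% GC) above it, Cacnb1 and Kcnn2 under it, and Hcn2 (65.4% GC) below and past its right end.

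Of the channels closest to CB1R signalling, Cacna1b was at similar levels with both treatments, and Cacna1a had a lower mean with HU210 (3.15) than with DMSO (3.54). Cacna1b had FPKM of 9.96, 11.1, 11.2 and 10.6 with HU210 and 10.3, 10.1, 11.7 and 10.7 with DMSO at 2, 4, 6 and 8 h, with changes of -0.04, 0.12, -0.06 and -0.01. Cacna1a had 3.13, 3.30, 2.72 and 3.45 with HU210 and 4.05, 3.34, 3.26 and 3.49 with DMSO, with changes of -0.29, -0.01, -0.20 and -0.01. The lowest value of Cacna1a was in HU210 at 6 h and the highest in DMSO at 2 h, and the ranges overlapped. In the paired test described further on, the 95% interval of the mean log2 change was -0.18 to 0.18 for Cacna1b and -0.33 to 0.08 for Cacna1a. Kcnj9 had a mean of 0.467 FPKM with HU210 and 0.434 with DMSO, and Kcnj6 had 0.0518 and 0.0592, all under the limit for testing.

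Only 2 of the 40 channel genes had a change of the same sign at all 4 hours, which is 5% against 7.93% of all genes tested. Cacna1a was the one that was lower, and Kcnk3 was higher with changes of 0.06, 0.03, 0.37 and 0.04. Kcnk3 had FPKM of 13.9, 13.7, 16.7 and 13.4 with HU210 and 13.3, 13.4, 12.6 and 13.1 with DMSO. The lowest HU210 value, at 8 h, was just above the highest DMSO value, at 4 h (13.41 against 13.39). How many of all genes have groups that separate like this was not counted. In the same paired test, Kcnk3 had an estimate of 0.12 (SE 0.09) and a limma adjusted p of 1.0, with 0% of all genes called.

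The second comparison asked whether HU210 and DMSO differed over all hours together. The 8 libraries were fitted with limma with the time point as block, so that the error was the spread of the drug effect over the 4 hours, and p-values were adjusted by the Benjamini-Hochberg method over 11306 genes. No gene was called in either direction, 0% of all genes and 0 of the 40 channel genes, and 148 genes, none of them a channel gene, had an unadjusted p under 0.05. The lowest p among the channel genes belonged to Cacna1i, a T-type calcium channel gene, with an estimate of -0.17 (SE 0.09, limma adjusted p = 1.0). Estimates were positive for 19 and negative for 21 of the 40. The 95% interval lay within 1.5-fold on both sides for 39 of the 40 genes and within 1.3-fold for 28. Cacnb1 was the exception, with an estimate of -0.32 and an interval of -0.92 to 0.28. Thus for nearly all expressed channel genes a lasting difference of 1.5-fold in FPKM + 1 lay outside the interval. In genes of low FPKM the added 1 shrinks the change, so a 1.5-fold difference in FPKM itself can lie inside it. Smaller differences could not be told from 0 in this design.

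**Figure D5:**
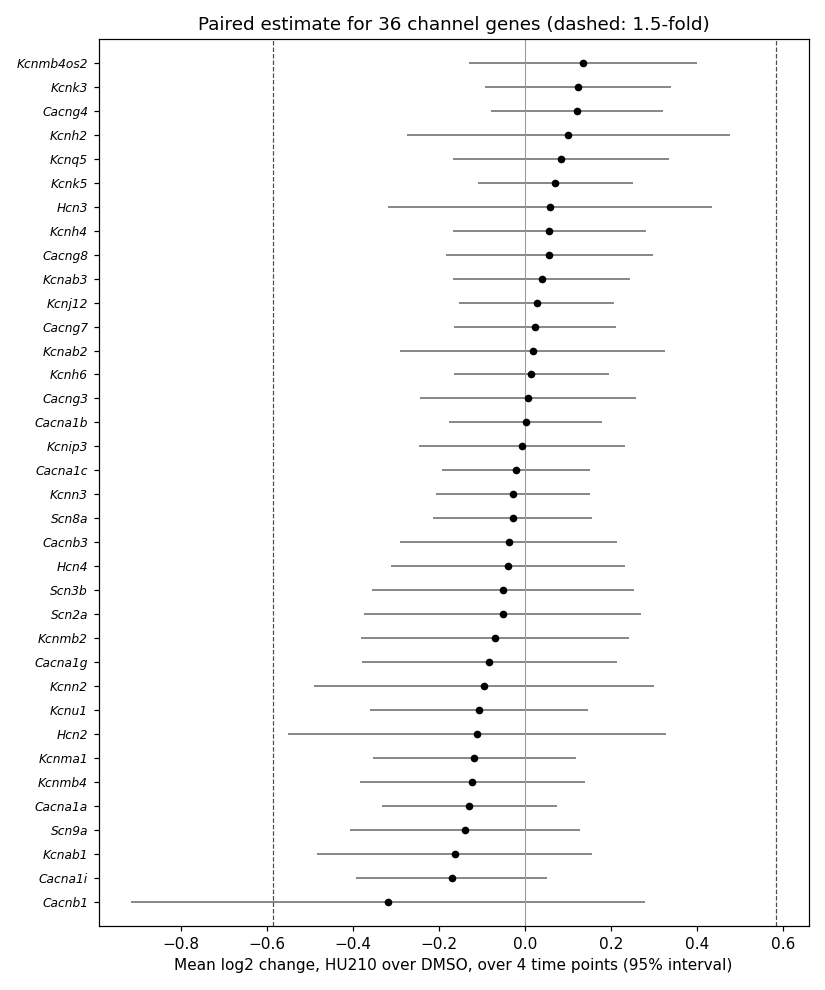
Estimate of the mean log2 change, HU210 over DMSO, over the 4 time points for 36 of the 40 channel genes, with 95% intervals from limma; dashed lines mark 1.5-fold. All 36 intervals include 0, and only that of Cacnb1 (-0.92 to 0.28) crosses a dashed line.

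The third comparison set the late libraries (6 h and 8 h) against the early ones (2 h and 4 h) in both treatments. The fit had no term for the hour. The HU210 and DMSO libraries of an hour thus counted as separate, although only 2 hours stand on each side. Again limma called no gene, 0% of all genes and 0 of 40 channel genes, with 997 genes at an unadjusted p under 0.05, of which 2 were channel genes. Kcnab3, a beta subunit of Kv1 channels, had FPKM of 1.38 and 1.37 with HU210 and 1.32 and 1.07 with DMSO at 2 and 4 h, and of 0.756 and 0.851 with HU210 and 0.925 and 0.787 with DMSO at 6 and 8 h. All 4 early values lay above all 4 late ones, a separation that was not counted over all genes. The estimate was -0.32 (SE 0.08, limma adjusted p = 0.43). Cacng8 was the other, with an estimate of 0.25 (SE 0.09, limma adjusted p = 0.52) and overlapping groups. The interval lay within 1.5-fold for 39 of the 40, again with Cacnb1 as the exception.

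The last comparison asked whether the difference between HU210 and DMSO was another at the late than at the early hours. It came from the same fit as the third, without a term for the hour. By limma 0% of all genes and 0 of the 40 channel genes were called, and 1786 of the 11306 genes had an unadjusted p under 0.05. Among these were 6 of the 40 channel genes, a share near that of all genes. Kcnn2 (0.64, SE 0.19, limma adjusted p = 0.20), Hcn2 (0.68, SE 0.24), Scn3b (0.47, SE 0.15), Hcn4 (0.39, SE 0.15) and Cacng3 (0.37, SE 0.15) had a higher estimate late, and Kcnh2 a lower one (-0.63, SE 0.23, limma adjusted p = 0.25). Without the 4 h libraries the estimates were 0.42 for Kcnn2, 0.45 for Hcn2, 0.39 for Scn3b, 0.28 for Hcn4, 0.30 for Cacng3 and -0.47 for Kcnh2. All 6 kept their sign, with residual degrees of freedom of 2 in place of 4. These 6 genes were picked by the fit on all libraries, which includes every library used here. The kept signs thus follow in part from that choice. With a time point left out, each treatment keeps only 1 library at its early or late hours, so no count of p-values is given for such fits. This comparison was the least precise of the 3, since the interval lay within 1.5-fold for only 17 of the 40 genes.

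The pattern of Kcnh2 over the 8 libraries was most like that of Kcnh4, its relative, with a Pearson correlation of log2(FPKM + 1) of 0.94 (Spearman 0.95) and of 0.88 without the DMSO libraries of 4 h and 6 h. Kcnip3 (0.70) and Cacna1c (0.58) came next, and without these 2 libraries their values were 0.32 and -0.31. The most opposite patterns were those of Hcn2 (-0.91), Kcnn2 (-0.87) and Hcn4 (-0.87), which remained at -0.81, -0.86 and -0.84. These are descriptions over 8 libraries that share the trends on base composition given above.

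An antisense transcript showed the largest single departure among the genes under 1 FPKM, and was picked after its values had been seen. Kcnmb4os1 had FPKM of 0.297, 0.194, 4.17 and 0.236 with HU210 and 0.249, 0.124, 0.583 and 0.403 with DMSO, so that the HU210 library of 6 h was the only one above 1 and the change at 6 h was 1.71. Of its exons, 43.1% overlap Kcnmb4 on the opposite strand, and Kcnmb4 had 5.59 FPKM in that library and 5.73 in DMSO at 6 h. The neighbouring Kcnmb4os2 had 1.32 and 1.49 there.

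Genes that work with these channels were described as lists. Of 34 channel partners (scaffolds, calmodulins, fibroblast growth factor homologous factors and others), 30 were in the table and 19 had a mean of at least 1. Of these, 1 was past 1.5-fold at 4 h, the scaffold Dlg1, with 20.2 FPKM in HU210 and 43.2 in DMSO. Of 16 genes of calcium release and store-operated entry, 12 had such a mean and 2 were past 1.5-fold lower at 4 h: Micu2, a regulator of the mitochondrial uniporter (11.9 and 22.5), and Stim2, a calcium sensor of the endoplasmic reticulum (4.40 and 8.44). None of the 21 expressed genes among 37 other cation and anion channels in the table passed at any hour, and no gene of the 3 lists passed at 2, 6 or 8 h. Of all 11306 genes, 8.69% were past 1.5-fold lower at 4 h. In Dlg1, Micu2 and Stim2 the DMSO library of 4 h was the highest of the 8. Against the other 3 DMSO libraries their log2 changes at 4 h were -0.36, -0.22 and -0.25. Both follow in part from naming genes by a change that uses this library. By limma, 0 of the genes of the 3 lists were called in any of the comparisons.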

How the data were processed

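The 8 libraries hold 1 library per combination of HU210 or DMSO and 4 times. The authors mapped reads to mm9 using Ensembl gene models and TopHat (version 2.0.8), which ran with bowtie (version 2.1.0) and samtools (version 0.1.7), and computed FPKM with Cufflinks, with multi-read and fragment bias correction and upper-quartile normalization; the version of Cufflinks is not given in the sources used here. The values the authors deposited are FPKM with 1 added, and that 1 was subtracted. Upper-quartile scaling makes values relative to the expressed genes of a library, and bias correction changes levels with sequence composition. The authors' own columns (log2 ratio, p-value, adjusted p and call) and their table of DEGs were not used. Counts per gene were not analysed here, so the depth behind a value is unknown.

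A channel gene was expressed with a mean of at least 1 FPKM. Tests ran on log2(FPKM + 1) of 11306 genes with that mean and a value at all 4 time points, with limma 3.58.1 with trend in R 4.3.3 and Benjamini-Hochberg adjustment at 5%. The time points are not replicates of a condition. Tables and figures were made with Python 3.11.15, numpy 2.4.6, pandas 2.3.3 and matplotlib 3.10.9. Fits were tested on simulated data, with 200 changed genes among 11306. GC content and overlaps came from GENCODE vM1 on mm9 and promoters from RefSeq on GRCm38.p6.

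Some expressed channel genes are counted but not reported here by name. Genes named are other expressed channel genes, those of CB1R signalling, the leading gene of each class, and those marked as picked later. The members and lists were chosen with earlier results of these data known. Alternatives were a pseudocount of 0.1, no filter, centred libraries, removal of the GC and length trend, 1.3-fold, other DMSO references, other time terms and each time point left out.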

Additional observations from a re-analysis of the deposited data

How the results depend on the processing

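The number of expressed channel genes was 40 with a mean of at least 1 FPKM, 47 with 0.5, 28 with 2, and 36 when every library had to reach 1. At 4 h, 1 channel gene was higher and 4 lower by 1.5-fold, beside 2.77% and 8.69% of all genes. A pseudocount of 0.1 gave 2 higher and 6 lower (Kcnmb2 and Scn2a in addition), beside 3.96% and 11.4% of all genes. Centred libraries gave 2 higher and 1 lower, beside 5.02% and 5.7%, and 1.3-fold 2 and 7, beside 8.97% and 19.9%. Removal of the GC and length trend gave 0 higher and 3 lower, beside 3.33% and 4.2%. With the mean of the 4 DMSO libraries, or of the other 3 (added after the data had been seen), as reference, 0 were higher and 0 lower at 4 h. Of all genes, 0.442% were then higher and 1.6% lower with the 4, and 0.327% and 1.29% with the other 3. At the other hours, with 0 genes as reported, 1 was higher at 6 h with no filter (Kcnmb4os1) and with 1.3-fold (Hcn2), beside 1.57% and 6.39% of all genes. At 8 h, 1 was higher (Kcnmb4os2) and 1 lower (Cacna1g) both with a pseudocount of 0.1 and with 1.3-fold. Of all genes, 2.1% were higher and 0.92% lower with that pseudocount, and 4.38% and 1.44% with 1.3-fold. With the other 3 DMSO libraries as reference, 1 was lower at 2 h and 1 at 8 h, Cacnb1 in both, beside 1.74% and 0.84% of all genes. At both hours this reference includes the DMSO library of 4 h, the highest for Cacnb1 (9.77 FPKM). Against the same reference, the DMSO libraries of 2 h and 8 h themselves differed by -0.52 and -0.42 for Cacnb1. The cause of these differences was not tested. Centring is by the library median, which was 3.70 for HU210 and 3.80 for DMSO at 4 h on the log2 scale.

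In the limma comparisons, 0 channel genes were called in each of 54 alternatives, including the paired test without the time block, the late against early difference with the time point as replicate block, and each time point left out (0 to 0 calls); with few residual degrees of freedom these tests seldom make a call, so this says little about stability. Of the other alternatives, 36 counts were equal to the reported one, 5 differed by at most 1.5 times and 18 by more. Of the changes of single genes at 4 h, 10 stayed past 1.5-fold and 15 came under it with the direction kept. The HU210 and DMSO libraries of a pair are linked only by their hour. One library per condition and an unknown depth per gene limit all differences at single hours.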
